A study of Mus musculus with 2 samples.

Results

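Complement components and receptors were examined in the immune cells of mouse visceral adipose tissue (VAT). The genes were 8, chosen by name from the 26981 genes listed in either library: the C1q chains C1qa, C1qb and C1qc, the central component C3, the receptors C3ar1, C5ar1 and Vsig4, and Cfp, which encodes properdin. All 8 had counts in both libraries. CD45+ cells had been taken with magnetic beads from the epididymal VAT (eWAT) of wildtype C57BL/6 mice aged 15 weeks. The mice received normal water (NW) or antibiotics (ABX). Strain, genotype, age and tissue were the same in both groups. The ABX label names no agent, and the number of mice pooled into a library is not given in the sources used here. There was 1 library per group, so no difference between NW and ABX has a replicate check, no test was made, and all intervals below are 95% intervals that cover counting error only.

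C1q is the recognition molecule of the classical complement pathway, assembled from its A, B and C chains, and unlike most complement proteins it is made mainly by macrophages and dendritic cells rather than by hepatocytes. Bound C1q activates proteases that lead to cleavage of C3, and the fragments released from C3 and C5 act on myeloid cells through the receptors encoded by C3ar1 and C5ar1. Properdin stabilises the C3 convertase of the alternative pathway, and Vsig4 encodes a receptor of resident macrophages that takes up C3 fragments bound to microbes or debris.

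The NW library kept 12474 cells with a median of 5092 unique molecular identifiers (UMIs, each standing for 1 captured transcript), and the ABX library 12724 cells with a median of 3845.5. Cells were kept with at least 500 UMIs, at least 200 genes and at most 25% mitochondrial UMIs. They were clustered with the complement genes left out, and clusters were named from marker genes. Macrophage-like cells were 46.7% of the NW cells (5821) and 39.6% of the ABX cells (5038). Of the 28 clusters, 7 stayed unnamed and held 6.81% of the NW and 9.28% of the ABX cells. The libraries shared 196 barcode numbers, 1.57% of the NW cells, and 37 of those barcodes fell in the same class in both. The log2 ratio of C1q between the libraries was -0.21 with and without them.

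The genes C1qb, C1qc and C1qa lie side by side on chromosome 4 (GRCm38, 136880129 to 136898803), all on the minus strand, with no other annotated gene in the 18675 bases they span. C1qb occupies 136880129 to 136886187, C1qc 136889804 to 136893065 and C1qa 136895917 to 136898803. The other members are spread over the genome, with C3 on chromosome 17 (57203970 to 57228136), C3ar1 on 6 (122847138 to 122856161), C5ar1 on 7 (16246743 to 16259540), and Cfp (20925454 to 20931555) and Vsig4 (96247203 to 96293438) on X. The bases upstream of C1qb and C1qc are shown (RefSeq, GRCm38.p6, minus strand, 5′ to 3′, upstream of both the RefSeq and the GENCODE start). Capitals mark matches on either strand to GAGGAA, a core of PU.1 sites, and to TGCTGA, a MAF half-site. PU.1 and MAF family proteins are transcription factors of macrophages.
C1qb, chr4:136886201-136886450: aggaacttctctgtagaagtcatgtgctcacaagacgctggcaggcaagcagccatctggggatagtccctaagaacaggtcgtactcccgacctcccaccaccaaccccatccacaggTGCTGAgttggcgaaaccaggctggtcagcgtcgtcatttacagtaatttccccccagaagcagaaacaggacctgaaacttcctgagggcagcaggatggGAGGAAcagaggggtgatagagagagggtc
C1qc, chr4:136893066-136893164: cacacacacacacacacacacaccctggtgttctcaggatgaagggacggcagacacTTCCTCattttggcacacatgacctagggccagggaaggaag
C1qb held 1 match to each motif and C1qc 1 match to GAGGAA in reverse (TTCCTC). Over the 250 bases before the start, 23.3% of 32851 promoters held GAGGAA and 16.1% TGCTGA on either strand. In C1qb the matches lay 131 (TGCTGA) and 30 (GAGGAA) bases before the start and did not overlap. Promoters were found for 7 of the 8 members, of which 3 held the first motif and 4 the second. No promoter was found for C1qa, and Cfp held neither motif. These matches describe letters in a window and not binding, and a link to the difference between NW and ABX was not tested.

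C1q was carried by nearly every macrophage-like cell. A UMI of at least 1 chain was found in 99.2% of the macrophage-like cells of NW and in 98.4% of those of ABX, and all chains together were found in 93.2% and 89.4%. In CPM, the gene's UMIs out of every 1000000 UMIs summed over a class, C1qa, the gene of the A chain, stood at 2377 in NW and 1993 in ABX. C1qb, which encodes the B chain, stood at 4439 and 3755. C1qc, which encodes the C chain, stood at 5058.5 and 4517. In each library all chains were thus highest in macrophage-like cells, which held 86.3% of all C1q UMIs in NW and 83.3% in ABX while being 46.7% and 39.6% of the cells. Levels of different genes are not compared here, since the capture of each transcript differs.

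**Figure D1:**
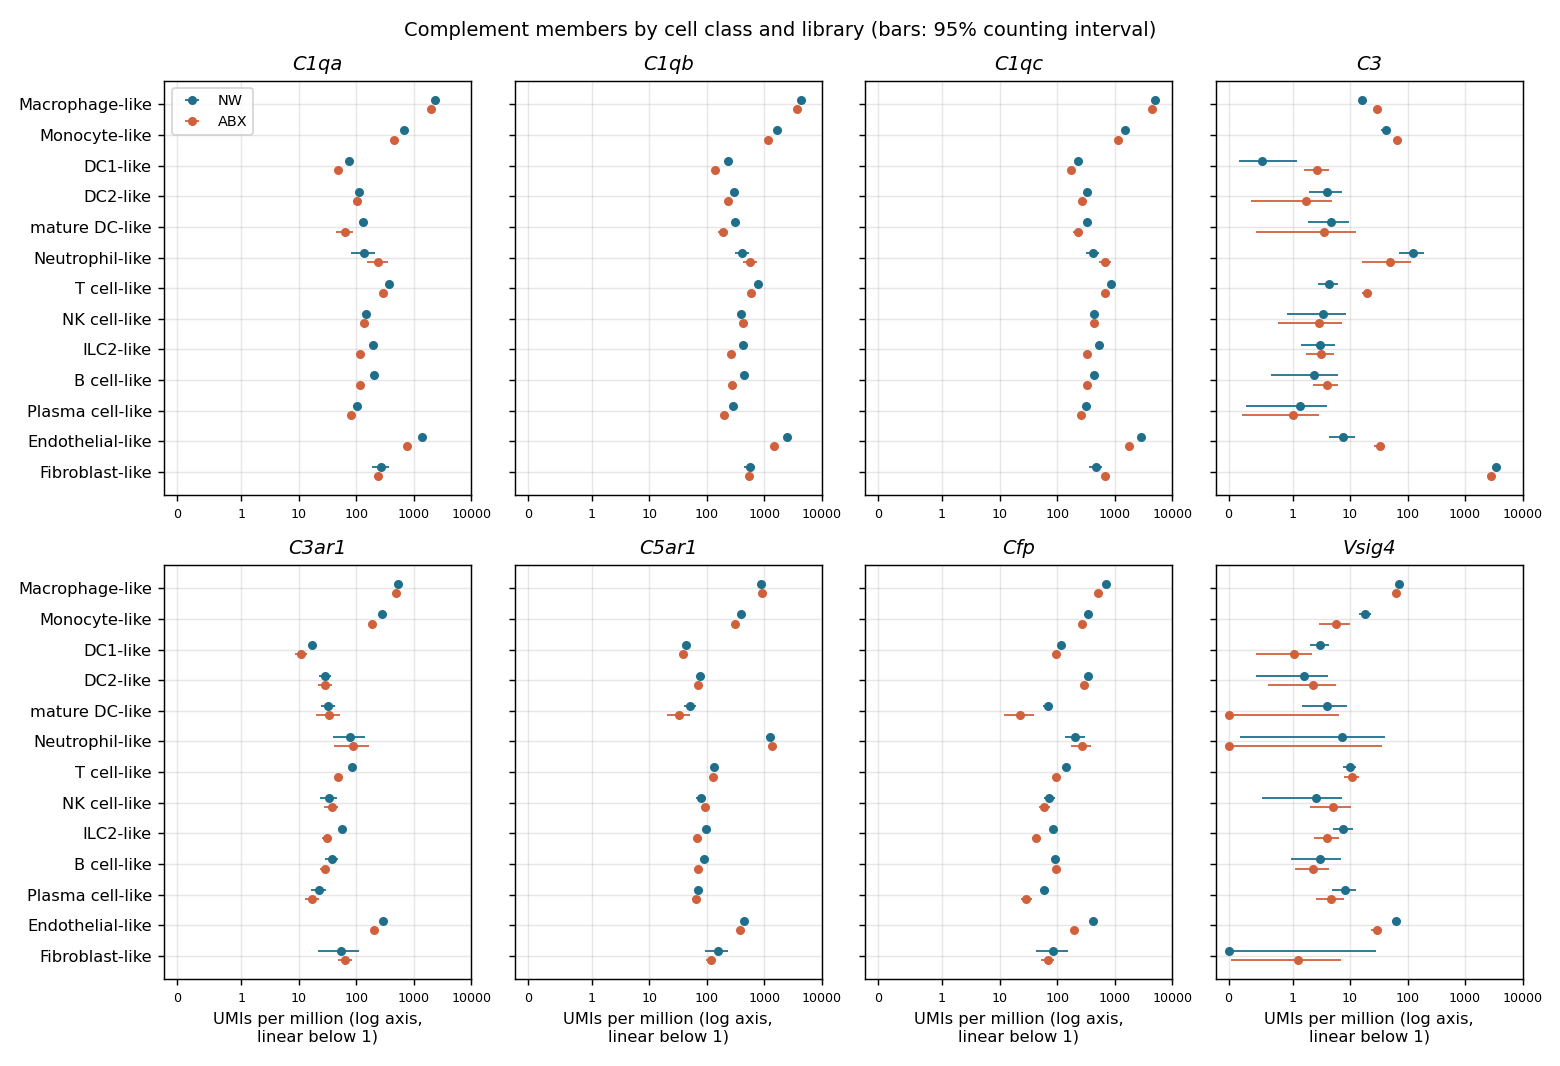
CPM of each member (log axis, linear below 1) in 13 cell classes, with points for the NW and ABX libraries and bars for the 95% counting interval. C1q chains peak in macrophage-like cells, C3 in fibroblast-like cells at 3434 (NW) and 2792 (ABX) CPM, and C5ar1 in neutrophil-like cells at 1247 and 1374 CPM.

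The spread over single cells was wide. The median macrophage-like cell of NW held 65 C1q UMIs, or 11657 CPM counted over its own UMIs, and the 5th and 95th percentiles were 2595 and 17693. In ABX the median was 41 UMIs, or 9915 CPM, with 1523 and 16261 at the same percentiles. Cells under 1000 CPM made up 3.01% (175 of 5821) of the macrophage-like cells in NW and 4.13% (208 of 5038) in ABX. The distributions overlapped over nearly their whole range, with the ABX cells shifted to lower values.

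**Figure D2:**
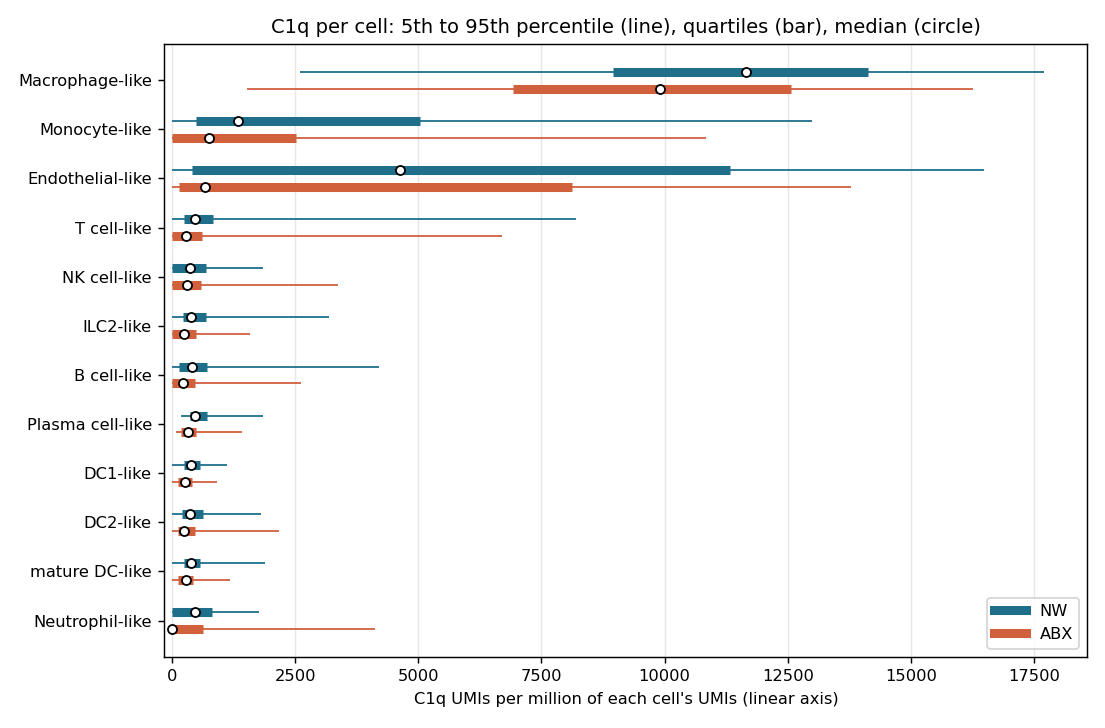
C1q level in each cell, in CPM of its own UMIs, by class and library, with the 5th to 95th percentile as a line, the quartiles as a bar and the median as a circle. The medians of macrophage-like cells, 11657 and 9915, lie above the 95th percentile of the NK cell-, ILC2-, B cell-, plasma cell- and dendritic cell-like classes.

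The macrophage-like cells fell into 4 clusters, and C1q was high in all of them. Against all other cells, cluster 0 was led by Retnla, Hmox1 and Lyve1, and it held 2870 NW and 2701 ABX cells. In that comparison cluster 1, with 2260 and 1462 cells, was led by Klkb1, Fcna and Ednrb. For the lists in this paragraph, a gene counted as higher only from 1.5-fold up and at a detection rate of 10% or more. Against the other macrophage-like and monocyte-like clusters, cluster 1 was higher in 4 of 9 genes of a Lyve1 program of resident macrophages. Cluster 0 was higher by this rule in 0 of these 9 genes, and in that comparison it was led by St3gal5, Car3 and Retnla. The 9 genes still summed to 10393.5 CPM in NW and 7790 in ABX in cluster 0. The sums were 11960 and 8827 in cluster 1, 12115 and 8356 in cluster 19, and 7504 and 5681 in cluster 4. They were 1773 and 1195 in the monocyte-like cluster. Cluster 4, with 624 and 810 cells, was higher in 8 of 8 inflammatory genes, among them Il1b, Tnf and Ccl12, and also in 8 of 10 genes of a list known to respond to tissue dissociation, which includes Fos and Egr1. Cluster 19, with 67 and 65 cells, was higher in 7 of 8 interferon-response genes. In NW, C1q stood at 11713 CPM in cluster 0, 12066 in cluster 1, 11680 in cluster 4 and 13418 in cluster 19. In ABX it stood at 10148, 10356, 10286 and 12164. The interferon-response cluster was highest in both libraries, the other clusters lay close together, and every cluster was lower in ABX. At a finer clustering (resolution 1.0), C1q was lowest in a macrophage-like cluster led by Klkb1, at 10733.5 CPM in NW and 8929 in ABX. It stood at 12833 and 11258 in one led by Cd209d, Ednrb and Timd4, and at 13364 and 12164 in the interferon-response one. The monocyte-like cluster was led against all other cells by Fn1, Ear2 and Lyz1, and was higher in 4 of 9 monocyte markers. Against the macrophage-like clusters it was also higher in 3 of 9 genes of lipid-associated macrophages, among them Fabp5 and Cd9. In this cluster those 9 genes summed to 7418 CPM in NW and 3097 in ABX. Its C1q, at 3869 CPM in NW and 2777 in ABX, was well below that of the macrophage-like clusters. C1q differed widely over its cells: 42.4% of the NW cells lay under 1000 CPM and 25.1% at 5000 or more. In ABX these shares were 59.2% and 16.99%.

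**Figure D3:**
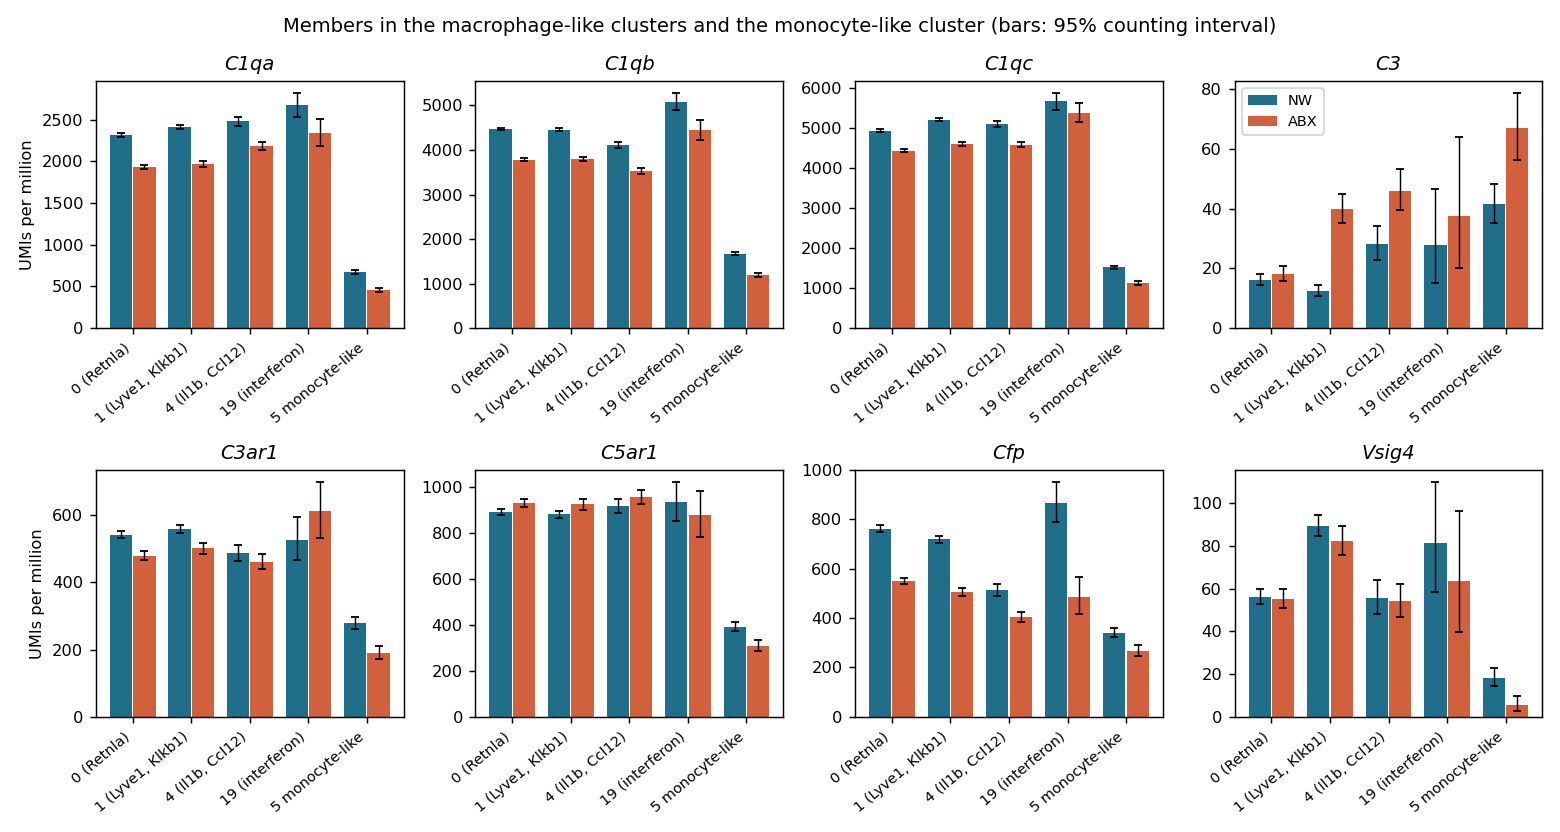
CPM of each member in the 4 macrophage-like clusters and the monocyte-like cluster, for NW and ABX (bars), with whiskers for the 95% counting interval. C1q chains are high in every macrophage-like cluster, Vsig4 reaches 89.3 (NW) and 82.3 (ABX) CPM in cluster 1, and Cfp is at 514 and 403 in cluster 4.

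Vsig4 and properdin differed between some of these clusters. Vsig4, the receptor for C3 fragments, stood at 56.2 CPM (NW) and 55.2 (ABX) in cluster 0, 89.3 and 82.3 in cluster 1, and 55.5 and 54.0 in cluster 4. Cluster 1 was thus higher than clusters 0 and 4 in both libraries. With a finer clustering (resolution 1.0), the Vsig4 level was highest in a cluster led by Cd209d, Ednrb and Timd4, at 114 CPM in NW and 115 in ABX, against 29.8 and 34.4 in the cluster led by the MHC class II genes H2-Eb1 and H2-Aa. Vsig4 was found in few macrophage-like cells: 8.52% in NW and 7.21% in ABX held a UMI, at median depths of 5640 and 4089.5 UMIs. In lymphocyte-like cells the shares were 1.91% and 1.44%, at median depths of 3769.5 and 3488.5. After each cell was thinned to 1000 UMIs, which left out 96 and 147 macrophage-like cells, these shares were 3.72% and 3.41% against 0.497% and 0.418%.

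Properdin (Cfp) was lowest among the macrophage-like clusters in the inflammatory cluster 4, at 514 CPM in NW and 403 in ABX. In clusters 0, 1 and 19 it stood at 763, 719 and 868 CPM in NW, and at 550, 507 and 488 in ABX. The order of cluster 4 below the others was seen in both libraries at this clustering. At resolution 1.0 the inflammatory cluster was again lowest in NW, at 522 CPM against 638 or more. In ABX it stood at 406 (386 to 428). That interval overlapped those of clusters led by Vcam1 (409, 372 to 450), Klkb1 (429, 406 to 453) and interferon-response genes (487, 417 to 567). No order among these could be read in ABX. C3ar1 stood between 487 and 558 CPM over the 4 clusters in NW and between 461 and 612 in ABX, and C5ar1 between 881 and 936 and between 877 and 956. Intervals of C5ar1 in cluster 19 overlapped those of all other macrophage-like clusters, so no order could be read there.

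Compared with the lymphocyte-like cells, C3ar1 and C5ar1 were found in most macrophage-like cells. C3ar1 was seen in 77.2% of them in NW and 65.2% in ABX (36.0% and 32.0% after thinning), against 10.9% and 7.39% of lymphocyte-like cells (3.20% and 2.25% after thinning). C5ar1 was seen in 87.9% and 83.9% (53.4% and 54.9% after thinning), against 21.7% and 17.8% (6.52% and 5.78%). The direction between the libraries thus differed for C5ar1 before and after thinning, and after thinning its share was the higher one in ABX.

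Outside macrophages, the members parted. C5ar1, the receptor that draws neutrophils to C5 fragments, was highest in neutrophil-like cells, at 1247 CPM in NW (63 cells) and 1374 in ABX (55 cells). Per 1000 C1q UMIs these cells held 1281 C5ar1 UMIs in NW and 921 in ABX, whereas macrophage-like cells held 74.97 and 90.9. The C5ar1 RNA of the neutrophil-like cells was therefore not in the ratio to C1q found in macrophages. Cfp was also found in DC2-like cells, at 349 CPM in NW and 289 in ABX, or 464 and 474 UMIs per 1000 C1q UMIs against 60.8 and 49.8 in macrophage-like cells. DC1-like cells held less, 116 and 94.9 CPM, but their ratio to C1q (213 and 263 per 1000) also stood above that of macrophage-like cells. An unnamed cluster of 15 NW and 18 ABX cells, led by Prg4, Alox15 and other genes of peritoneal macrophages, had the highest Cfp of all clusters (1865 and 1784 CPM) and the highest Vsig4 (436 and 1042), beside a C1q level of 6911 and 8893.

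C3, the component on which the complement pathways converge, was highest in fibroblast-like cells. It stood there at 3434 CPM in NW, where only 10 such cells were found, and at 2792 CPM in ABX, with 94 cells. They held 33.8% of all C3 UMIs in NW and 67.1% in ABX while being 0.0802% and 0.739% of the cells. Macrophage-like cells stood at 16.02 CPM in NW and 29.7 in ABX, with a UMI in 4.96% and 5.28% of them. Monocyte-like cells stood at 41.4 and 66.8 CPM, and neutrophil-like cells at 123 and 49.4, from 17 and 5 UMIs.

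Lymphocytes are not known to make C1q, and the level in their clusters was taken as the background from free RNA and from cells captured together. Over the T, NK, ILC2, B and plasma cell-like cells, C1q stood at 1430 CPM in NW and 935 in ABX. That was 12.05% (11.9 to 12.2) of the macrophage-like level in NW and 9.11% (8.97 to 9.26) in ABX. A C1q UMI was found in 80.4% and 64.9% of these cells, and in 41.2% and 30.1% after thinning, so a UMI of C1q alone does not mark a macrophage here.

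Most of that signal sat in few cells. The top 5% of the lymphocyte-like cells held 64.0% of their C1q UMIs in NW and 67.2% in ABX, while the median cell held 2 and 1. Cells with a UMI of at least 2 of 4 macrophage marker genes, which include Adgre1, Mertk and Csf1r, were 15.2% of the lymphocyte-like cells in NW (452) and 10.2% in ABX (412). They carried C1q at 33.9% and 35.6% of the macrophage-like level, at median depths of 7284.5 and 7205.5 UMIs. Without them the level was 3.96% in NW and 3.04% in ABX. Leaving out cells called as doublets by Scrublet gave 7.47% and 6.41%. Some other macrophage genes stood in a similar proportion over all lymphocyte-like cells. Csf1r was at 12.8% and 9.24% of its macrophage-like level, Mrc1 at 10.6% and 7.43%, and Apoe at 13.6% and 10.4%. Without the marked cells the fractions were less alike. Mrc1 was then at 2.74% and 1.85%, Apoe at 5.22% and 4.40%, and Cd68 at 6.30% and 5.31%. Of the C1q chains, C1qa was at 2.26% and 1.76% and C1qb at 4.40% and 3.34%.

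With all lymphocyte-like cells kept, C3ar1, C5ar1, Cfp and Vsig4 lay nearer the C1q fraction than C3 did. Over all lymphocyte-like cells, C3ar1 was at 10.8% of its macrophage-like level in NW and 6.90% in ABX, C5ar1 at 12.1% and 9.21%, Cfp at 14.7% and 13.4%, and Vsig4 at 11.1% and 8.77%. C3 was at 20.2% (14.7 to 27.2) and 24.8% (20.4 to 29.9), from 47 and 132 UMIs. Without the cells holding at least 2 of the 4 macrophage marker genes, C1q was at 3.96% and 3.04%. Cfp was then at 6.44% in NW and 7.33% (6.71 to 7.98) in ABX, and C3 at 10.6% and 7.84% (5.38 to 11.1), with overlapping intervals in ABX. In ABX, Cfp in these remaining cells stood at 73.6 CPM in B cell-like, 32.2 in T cell-like and 17.4 in ILC2-like cells. In NW the values were 54.7, 57.1 and 34.6. Dendritic cells, which can make C1q, gave no higher level: C1q stood at 542 CPM in NW and 360 in ABX in DC1-like cells, and at 752 and 610 in DC2-like cells, below the lymphocyte-like level in both libraries. Endothelial-like cells stood higher, at 6798 and 4084 CPM. In that cluster 41.0% of the NW cells and 52.8% of the ABX cells lay under 1000 CPM and 49.6% and 36.4% at 5000 or more, and 58.4% and 49.8% passed the same macrophage gate. Monocyte-like cells, at 3869 and 2777 CPM, lay above the lymphocyte-like level in both libraries. This did not hold for all of them at resolution 1.0. There a small monocyte-like cluster led by Chil3, Ace and Plac8 (44 NW and 42 ABX cells) stood at 895 and 359 CPM. Those values lay below the lymphocyte-like levels of 1430 and 935. The larger one, led by Fn1 and Fabp5, stood at 4200 and 3179.

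In lymphocyte-like, DC1-like and monocyte-like cells, the make-up of C1q RNA by chain differed between cells with few and many C1q UMIs. C1qa made up 20.02% of the C1q UMIs of macrophage-like cells in NW and 19.4% in ABX, C1qb 37.4% and 36.6%, and C1qc 42.6% and 44.0%. The inflammatory cluster 4 had a slightly larger C1qa share, 21.3% in NW and 21.2% in ABX, against 19.8% and 19.1% in cluster 0. Among lymphocyte-like cells with 10 or more C1q UMIs, the C1qa share was 19.5% and 19.3%, close to macrophage-like cells. Among lymphocyte-like cells with 1 to 3 C1q UMIs it was 11.3% (10.2 to 12.5) in NW and 10.3% (9.30 to 11.4) in ABX. Macrophage-like cells with 1 to 3 C1q UMIs had 16.2% (12.6 to 20.3) and 20.5% (17.03 to 24.4). Those with 4 to 9 had 19.5% (17.6 to 21.4) and 24.3% (22.7 to 26.0), and those with 10 or more 20.03% and 19.4%. DC1-like and monocyte-like cells with 1 to 3 UMIs had 11.7% and 9.71% in NW and 10.4% and 11.4% in ABX, like the lymphocyte-like cells.

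**Figure D4:**
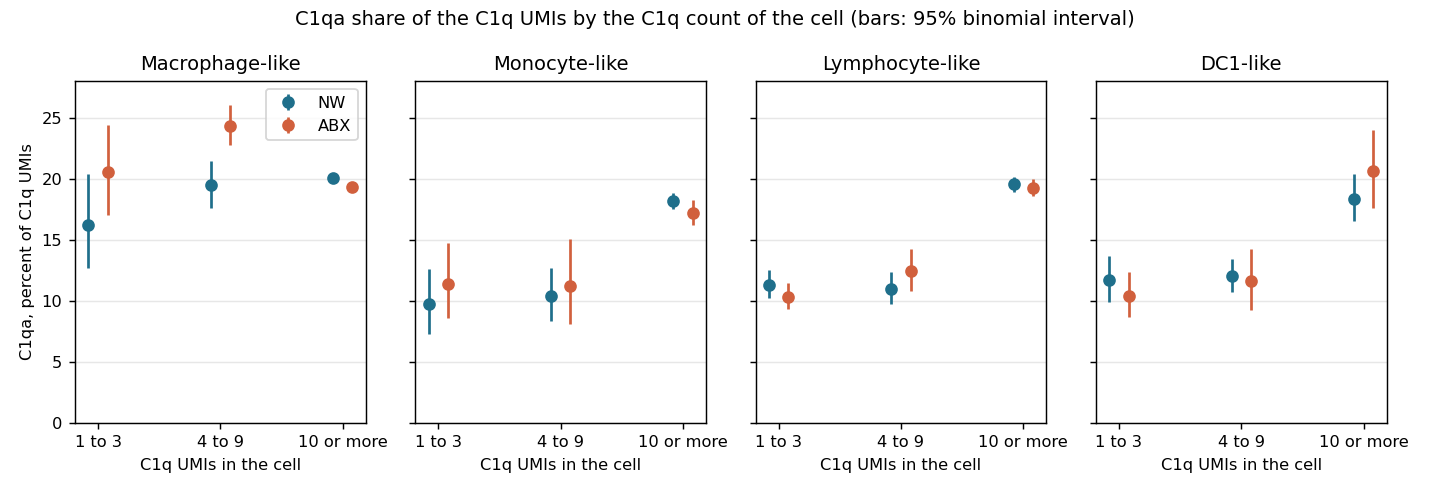
Share of C1qa among the C1q UMIs (percent) against the number of C1q UMIs in the cell, in 4 groups of cells, for NW and ABX, with 95% binomial intervals. Outside macrophage-like cells the share is 9.71% to 12.4% in cells with 1 to 9 C1q UMIs and 17.2% to 20.7% in cells with 10 or more.

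The comparison of NW with ABX asked whether complement expression in adipose macrophages differed under antibiotics. In macrophage-like cells the C1q chains were lower in ABX, together at 10265 CPM against 11875 in NW, a log2 ratio of ABX over NW of -0.21 (-0.22 to -0.20). C1qa differed by -0.25 (-0.27 to -0.24), C1qb by -0.24 (-0.25 to -0.23) and C1qc by -0.16 (-0.17 to -0.15). The chains were lower in ABX in each of the 4 macrophage-like clusters, where C1q differed by -0.21, -0.22, -0.18 and -0.14 in clusters 0, 1, 4 and 19. Of all genes with at least 200 UMIs in these cells, 7.45% had a lower ratio than C1qa, 8.22% than C1qb and 15.6% than C1qc, so lower ratios were not rare.

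Among the other members, Cfp was the lowest, at 722 CPM in NW and 511 in ABX, a log2 ratio of -0.50 (-0.53 to -0.47), and only 1.60% of genes had a lower one. It was lower in all 4 clusters (-0.47, -0.50, -0.35 and -0.83), and the share of macrophage-like cells with a Cfp UMI was 83.4% in NW and 67.2% in ABX (45.7% and 35.2% after thinning), against 20.9% and 15.1% of lymphocyte-like cells (6.33% and 4.54%). Properdin is released by myeloid cells and acts in the alternative pathway. C3ar1 stood at 542 and 485 CPM (log2 ratio -0.16, -0.20 to -0.13) and Vsig4 at 69.7 and 63.4 (-0.14, -0.23 to -0.04). The Vsig4 ratio turned to 0.14 in macrophage-like cells with at least 5000 UMIs. C5ar1 was slightly higher in ABX, at 933 against 890 CPM (0.07, 0.04 to 0.09).

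C3 was the only member past 1.5-fold in macrophage-like cells, at a log2 ratio of 0.89 (0.73 to 1.05). That was 1 of 8, in a comparison in which 4.38% of the 10202 genes with at least 200 UMIs were past 1.5-fold in either direction, 3.3% higher and 1.08% lower in ABX. With at least 50 UMIs, 10.2% of genes were past it. At 2-fold, 0 of the 8 members and 1.62% of the genes with at least 200 UMIs were past. The markers of fibroblasts moved with it: the summed level of 7 fibroblast genes in macrophage-like cells was 52.2 CPM in NW and 171 in ABX. In the macrophage-like cells without a UMI of any of these genes (5104 in NW, 3812 in ABX) C3 was at 11.2 and 13.4 CPM, a log2 ratio of 0.26 (0.0082 to 0.51), and then 0 of the 8 members were past 1.5-fold. A few cells also weighed heavily, since 9 NW cells and 14 ABX cells with at least 5 C3 UMIs held 194 of 574 and 342 of 676 UMIs. The clusters were uneven, with a log2 ratio of 0.16 in cluster 0, 1.68 in cluster 1, 0.72 in cluster 4 and 0.44 in cluster 19.

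**Figure D5:**
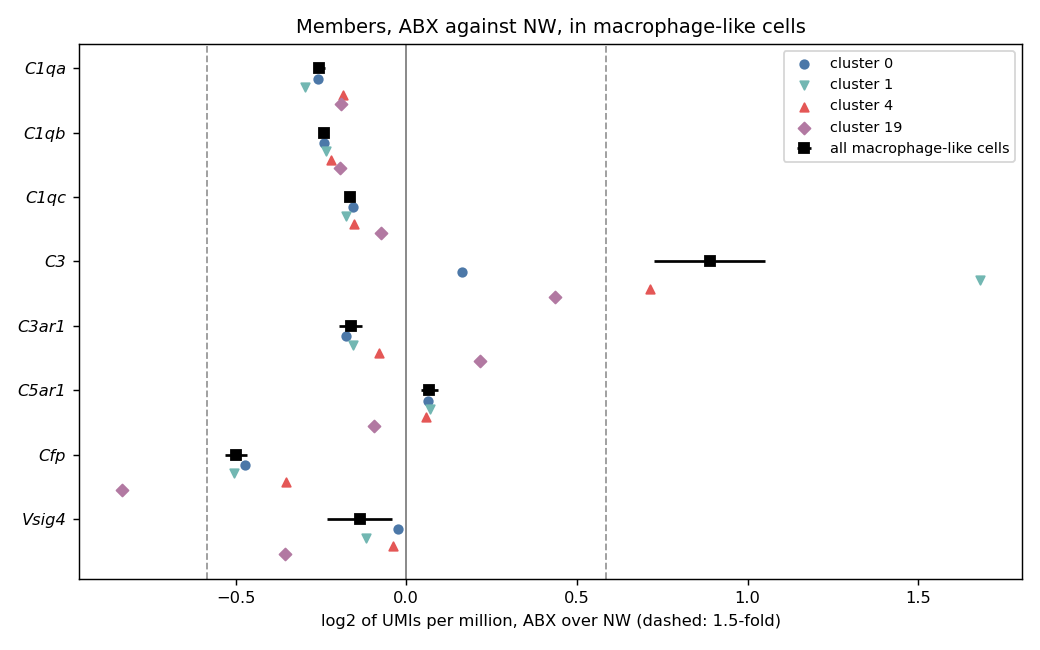
Log2 ratio of CPM, ABX over NW, of each member in all macrophage-like cells (squares, with 95% counting intervals) and in each macrophage-like cluster (coloured symbols). The C1q chains and Cfp lie below 0 in every cluster, C5ar1 near 0, and C3 is past the dashed 1.5-fold line at 0.89.

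Properties of the libraries stood beside these differences, and their part in them was not tested. Macrophage-like cells had a median of 5640 UMIs in NW and 4089.5 in ABX, and a median mitochondrial share of 6.58% and 8.09%. Restricted to cells with at least 5000 UMIs, the C1q ratio was -0.20. Restricted to at most 10% mitochondrial UMIs it was -0.17, and with macrophages taken by the gate of 4 genes in place of clusters it was -0.12. Genes of the dissociation list summed to 15472 CPM in NW and 15077 in ABX, those of the Lyve1 program to 10759 and 7768, and those of the inflammatory list to 1163 and 1532. Some markers of other cell types in the macrophage-like cells were also higher in ABX, with B cell markers at 39.7 and 137 CPM, T cell markers at 77.0 and 122, and endothelial markers at 88.6 and 156, whereas neutrophil markers stood at 240.4 and 209.6 and DC1 markers at 418 and 419. When the ABX values within clusters were combined with the cluster shares of NW, the C1q ratio was -0.21. In bulk sums over all cells, C1q stood at 6558 CPM in NW and 4621 in ABX, where fewer macrophages and less C1q per macrophage cannot be told apart. In the lymphocyte-like cells C1q was also lower in ABX, by a log2 ratio of -0.61, as were C3ar1 (-0.81), Cfp (-0.63), C5ar1 (-0.32) and Vsig4 (-0.47). C3 was higher there, at 3.24 CPM in NW and 7.34 in ABX (1.18).

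In monocyte-like cells the values were 674 CPM in NW and 456 in ABX for C1qa, 1675 and 1190 for C1qb, and 1519 and 1132 for C1qc. C5ar1 stood at 392 and 308 CPM, C3ar1 at 278 and 191, Cfp at 341 and 269, and Vsig4 at 18.2 and 5.65, from 70 and 12 UMIs. Thus 7 members were lower in ABX and C3 was higher, with Vsig4 past 1.5-fold lower (log2 ratio -1.69) and C3 past it higher (0.69), in a class in which 7.94% of 4838 genes were past 1.5-fold either way, 2.89% higher and 5.04% lower. The C3 value rested on few cells: 8 NW cells held 102 of 159 UMIs and 4 ABX cells 111 of 142, and without the cells holding at least 5 UMIs C3 stood at 15.2 CPM in NW and 14.9 in ABX. The fibroblast genes summed to 59.1 and 212 CPM in the monocyte-like cells, C3 stood at 25.6 and 40.4 CPM in those without a UMI of these genes, and with 50 principal components the C3 ratio was -0.35. Vsig4 held fewer than 200 UMIs there, and the 12 UMIs in ABX came from 5 cells. These directions depended on which cells the cluster held, since clustering on genes without the antibodies gave 0.19 for C1q and 0.31 for C5ar1.

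The wider complement list held 47 further genes, of which 44 were listed in the files and 20 had at least 200 UMIs in macrophage-like cells. Of the 44, 5 were highest in macrophage-like and 12 in fibroblast-like cells, with no minimum set, so that genes with as few as 1 UMI in all cells are counted. In macrophage-like cells 2 of the 20 were past 1.5-fold higher in ABX and 2 lower, beside 3.3% and 1.08% of all genes tested, and their median log2 ratio was -0.14, against 0.01 over all genes. The higher ones were the protease gene C1s1 (2.01 CPM in NW, 9.08 in ABX) and Serping1, which encodes the inhibitor of C1 proteases (10.2 and 36.6). Both were highest in fibroblast-like cells, at 1230 and 1564 CPM for C1s1 and at 2959 and 4520 for Serping1. The lower ones were the integrin chains Itgam (309 and 203 CPM, log2 ratio -0.60) and Itgax (20.3 and 13.2, -0.62), which with Itgb2 (362 and 293, -0.30) form receptors for C3 fragments. Itgam was highest in neutrophil-like cells, at 822 and 969 CPM, and Itgax in NK cell-like cells, at 402 and 451. Over the lymphocyte-like cells of both libraries Itgax stood at 48.8 CPM, above its macrophage-like level.

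Of the early components, Fcna, a ficolin that starts the lectin pathway, was highest in macrophage-like cells, at 1859 CPM in NW and 1277 in ABX (-0.54). C4b, cleaved by the C1 proteases, stood at 816 and 667 (-0.29), and Colec12, a scavenger collectin, at 115 and 80.8 (-0.51). C1ra stood at 16.6 and 14.0 (-0.24) and C2 at 11.8 and 13.4 (0.18). These components were, apart from C2 and C1s1, lower in ABX, and the interval of C2 (-0.04 to 0.40) included 0. In the alternative and terminal pathways, Cfd, the gene of factor D, was at 33.3 and 43.8 CPM (0.40) and was highest in endothelial-like cells (360 and 597), and C6 at 56.0 and 45.7 (-0.29).

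Of the regulators, Cr1l stood in macrophage-like cells at 162 and 153 (-0.08) and Cd55 at 8.32 and 8.60 (0.05), the latter highest in B cell-like cells (267 and 261). Of the further receptors, C5ar2, a second receptor for C5 fragments, was at 44.4 and 51.6 CPM (0.22), higher in ABX like C5ar1. Cd93 stood at 349 and 324 (-0.11), Lrp1 at 180 and 170 (-0.08), C1qbp at 31.9 and 29.6 (-0.11), and Calr, which encodes calreticulin, at 1258 and 939 (-0.42). Cr2, the receptor of C3 fragments on B cells, was highest in B cell-like cells at 153 CPM in NW and 197 in ABX.

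As a description over 46 pairs of a cluster and a library, genes among the most like C1q by Pearson's r of log2(CPM + 1) among 9546 genes were F13a1 (0.987), Apoe (0.984), Csf1r (0.983) and Pf4 (0.981). The chains were alike to each other at 0.992 to 0.996. C3ar1 followed C1q closely (0.976), and the genes among the most like it were Ctsb (0.975) and Csf1r (0.969). C5ar1 (0.867 with C1q) was most like Pla2g7 (0.983), Fcgr3 (0.968) and Cd300ld (0.934). Cfp (0.821 with C1q) was most like Ccl6 (0.926), Cd68 (0.925) and Lyz2 (0.912). Vsig4 (0.852 with C1q) was most like Siglec1 (0.880), Cbr2 (0.875) and Folr2 (0.874). C3 stood apart, with 0.509 against C1q, and was most like Igfbp6 (0.882), Ccdc80 (0.816) and Ggt5 (0.811), which are genes of stromal cells. The pairs share 2 libraries and their depth and free RNA, so these values are not independent.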

How the data were processed

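CD45+ cells of VAT had been captured on BD Rhapsody with antibody tags, and the deposited UMI counts per cell, 1 table per library, were made by the authors with the BD pipeline (1.8 per the file headers), which corrects UMI errors. The gene positions given above were taken from GENCODE M21 on GRCm38, which was not used to make the counts here. The submitters' processing notes name R 3.6.0, Seurat 3.0.1 and mm10.

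From these counts, cells with at least 500 UMIs, 200 genes and at most 25% mitochondrial UMIs were kept and clustered in Seurat 5.3.0 (R 4.3.3) on 2000 variable genes without complement genes, 30 principal components, 8 of the 10 antibodies listed, weighted nearest neighbours and Louvain at resolution 0.6. Levels (CPM) are UMIs per 1000000 UMIs, summed over cells. Intervals are exact Poisson or binomial. The ratio interval was tried on simulated independent Poisson counts. Such counts cannot show how the interval covers genes whose UMIs sit in few cells, as many of those of C3 did. Likeness used log2(CPM + 1). Doublets were marked with Scrublet in scanpy 1.11.5. Its automatic threshold marked 2.76% of the NW cells and 0.00786% of the ABX cells, so the NW threshold (0.223) was used for both and was chosen after the data were seen (2.76% and 2.55% marked). Doublets were kept in the values unless stated.

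With 1 library per group there was no test. Named genes were the members, complement list genes with at least 200 UMIs in macrophage-like cells, the list genes highest in other classes, and the genes most like each member. Some genes that this rule names are not reported here. Members and lists were chosen with earlier results of these data known, and the naming of clusters was adjusted after they were seen. Vsig4 in the monocyte-like cells, the unnamed cluster led by Prg4 and the genes that lead clusters were named after their values were seen.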

Additional observations from a re-analysis of the deposited data

Results flagged for a closer look

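C5ar1 had opposite signs in 2 cell classes: its log2 ratio of ABX over NW was -0.35 in monocyte-like cells and 0.07 in macrophage-like cells, and the difference was not tested. With clustering on genes only, the monocyte-like value was 0.31, the same sign as in macrophage-like cells.

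C1q was also measured in the barcodes that the filters removed, 5188 in NW and 5061 in ABX, at medians of 599.5 and 515 UMIs. It stood there at 1976 CPM in NW and 1446 in ABX, above the lymphocyte-like levels of 1430 and 935 CPM.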

How the results depend on the processing

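C1q was lower in ABX macrophage-like cells under all 14 alternatives (-0.23 to -0.12, reported as -0.21): -0.17 with at most 10% mitochondrial UMIs, -0.19 with clustering on genes only, -0.20 at resolution 1.0, with complement genes kept in the clustering and in cells with at least 5000 UMIs, -0.12 by a gate on UMIs, -0.22 scaled by the median ratio and -0.23 as a mean over cells. The alternatives on fibroblast UMIs, 5000 UMIs, shared barcodes, gate-negative lymphocytes and monocytes were chosen after seeing the data. C1q in lymphocyte-like cells relative to macrophage-like cells was 11.5% (NW) and 8.92% (ABX) with at most 10% mitochondrial UMIs, 7.47% and 6.41% without doublets, 11.8% and 9.70% at resolution 1.0, 16.2% and 12.3% with 50 principal components, 12.5% and 9.57% with complement genes kept, 13.3% and 9.50% by the gate, 3.96% and 3.04% without gate-positive lymphocytes, and in ABX 10.1% with clustering on genes only. The number of members past 1.5-fold was 0 in cells without fibroblast UMIs and 0 at 2-fold. Vsig4 turned to 0.14 in macrophage-like cells with at least 5000 UMIs. In monocyte-like cells, clustering on genes only turned C1q to 0.19, C1qa to 0.15, C1qb to 0.12, C1qc to 0.27, C3ar1 to 0.017 and C5ar1 to 0.31, and 50 principal components turned C3 to -0.35. There Vsig4 had 0 UMIs in ABX with clustering on genes only and with 50 principal components, so it has no ratio. The cause was not tested.

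C1q CPM with at most 10% mitochondrial UMIs was 12013.5 (NW) and 10682 (ABX) in cluster 0, 12337 and 10878.5 in cluster 1, 11841 and 10733.5 in cluster 4, and in ABX 12637 in cluster 19 and 2967 in the monocyte-like cluster 5. Without doublets it was 11897 and 10278 in cluster 0 and 12137.5 and 10434 in cluster 1. As a mean over cells it was 11158 and 9427 in cluster 0, 11421 and 9869 in cluster 1, 11233 and 9788 in cluster 4, 3486 and 2328 in cluster 5, and 10849.6 in cluster 19 of ABX. No paired analysis was possible because each group has 1 library. Depth limits C3 and Vsig4 most, with 676 or fewer C3 UMIs in the macrophage-like cells of a library.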
